A study of Mus musculus with 14 samples.

Results

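Ubiquitin-specific proteases are the enzymes that the Usp genes encode. They were read out in mouse oocytes that overexpressed Rnaseh1, Rnaseh1 together with Supt6, or mCherry as the control. The genes were chosen by symbol: Usp followed by a digit or the letter l, present in both deposited expression tables, protein coding, and at a TPM (transcripts per 1000000 transcripts of the library) of 1 or more in 2 or more libraries of a table. Of the 34238 symbols shared by the tables, 59 matched the name, 57 of these were protein coding and 46 met the level, with 44 meeting it in each table and 42 in both. Usp12 and Usp35 met it in the first table only, and Usp20 and Usp6nl in the second only. The 11 protein-coding genes left out were Usp18, Usp25, Usp26, Usp40, Usp44, Usp9y and the 5 Usp17l genes, and the 2 that were not protein coding were Usp46os1 and Usp46os2. Just outside the limit, the second-highest TPM in either table was 0.86 for Usp26 and 0.70 for Usp44, and just inside it was 1.72 for Usp12 and 1.92 for Usp6nl. Usp6nl fits the name but encodes a GTPase-activating protein of the Rab system, and Uspl1 encodes a SUMO protease of related fold.

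Polyadenylated RNA was sequenced in 14 libraries, which form 7 groups of 2. The first table, the NSN and SN set, holds SN oocytes with oe-Rnaseh1, SN oocytes with oe-mCherry, NSN oocytes with oe-Rnaseh1 and NSN oocytes with oe-mCherry. In SN oocytes condensed chromatin surrounds the nucleolus and transcription is largely shut down, and in NSN oocytes the nucleolus is not surrounded and transcription is active. The second table, the rescue set, holds oe-Rnaseh1+Supt6, oe-Rnaseh1 and oe-mCherry, and its labels give no nucleolar stage. Every group carries an overexpression construct, so there are no untouched oocytes, and the labels state neither the strain, the age, how the constructs were delivered nor if replicate libraries stem from separate animals or pools. P-values therefore measure the spread between libraries, which may be technical.

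A deubiquitinase cuts ubiquitin from a protein or trims a ubiquitin chain, and so reverses what ubiquitin ligases do. The Usp proteins are cysteine proteases with a shared catalytic fold. Some act on histones H2A and H2B, some at the proteasome, at the endoplasmic reticulum, on mitochondria or in signalling, and several work only with a WD-repeat partner such as Wdr48. RNase H1, the product of Rnaseh1, degrades the RNA strand of RNA-DNA hybrids, and Supt6 encodes a histone chaperone that travels with RNA polymerase II.

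The libraries matched their labels at the overexpressed genes. Rnaseh1 stood at 2270.45 and 2017 TPM with Rnaseh1 plus Supt6, 1243 and 625 TPM with Rnaseh1, and 125 and 114 TPM with mCherry in the rescue set. In the other table it stood at 1361 and 1083 TPM in SN Rnaseh1 against 81.0 and 131 TPM in SN mCherry, and at 745 and 229 TPM in NSN Rnaseh1 against 137 and 108 TPM in NSN mCherry. Supt6 stood at 28.2 and 20.97 TPM with Rnaseh1 plus Supt6, at 3.01 and 2.55 TPM with Rnaseh1 and at 3.28 and 3.14 TPM with mCherry. A library held between 10036 and 11811 genes at 1 TPM or more in the first table and between 10892 and 12230 in the second, and TPM keeps no read depth, so no counting error can be given. All 12 oocyte markers, such as Zp3 and Gdf9, were at 1 TPM or more in every library, but their levels were not the same in all groups. In the rescue set Zp3 stood at 583 and 567 TPM with Rnaseh1 against 3002 and 3157 TPM with mCherry. Dppa3, another of the 12, went the other way, at 13070 and 13559 TPM against 3676 and 3548 TPM. The 2 libraries of NSN Rnaseh1 and of SN mCherry stood farthest apart. The difference between replicates had a standard deviation over genes of 1.28 and 1.05 on the log2 scale, against 0.35 to 0.69 in the other groups.

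Promoters are shown for the 4 genes with the largest rise or fall in the rescue comparison of Rnaseh1 with mCherry that have a RefSeq promoter entry, 2 in each direction. The sequences run 5′ to 3′ from 250 bases before the transcript start to 50 after it (RefSeq, GRCm38.p6), and all 4 genes lie on the plus strand. Capitals mark CCGGAAG, the core of the site that ETS factors bind. Usp16 lies at chr16:87454735-87455034 and Usp51 at chrX:153006219-153006518, and both rose. Usp20 lies at chr2:30982029-30982328 and Usp19 at chr9:108490426-108490725, and both fell.
Usp16: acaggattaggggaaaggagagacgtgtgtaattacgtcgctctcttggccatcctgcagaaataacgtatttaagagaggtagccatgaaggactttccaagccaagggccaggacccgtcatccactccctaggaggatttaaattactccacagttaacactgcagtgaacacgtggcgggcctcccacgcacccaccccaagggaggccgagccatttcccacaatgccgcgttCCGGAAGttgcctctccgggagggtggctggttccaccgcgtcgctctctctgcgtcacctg
Usp51: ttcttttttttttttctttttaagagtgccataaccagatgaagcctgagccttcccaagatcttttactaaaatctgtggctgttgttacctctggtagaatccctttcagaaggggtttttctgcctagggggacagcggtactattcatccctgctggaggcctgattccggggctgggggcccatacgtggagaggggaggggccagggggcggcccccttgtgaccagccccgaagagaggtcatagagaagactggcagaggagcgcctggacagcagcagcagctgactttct
Usp20: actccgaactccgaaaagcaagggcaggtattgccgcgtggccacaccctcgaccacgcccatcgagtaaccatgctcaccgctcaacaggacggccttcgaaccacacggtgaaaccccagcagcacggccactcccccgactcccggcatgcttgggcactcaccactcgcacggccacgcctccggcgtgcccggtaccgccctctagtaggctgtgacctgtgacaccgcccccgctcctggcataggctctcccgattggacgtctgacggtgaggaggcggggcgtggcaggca
Usp19: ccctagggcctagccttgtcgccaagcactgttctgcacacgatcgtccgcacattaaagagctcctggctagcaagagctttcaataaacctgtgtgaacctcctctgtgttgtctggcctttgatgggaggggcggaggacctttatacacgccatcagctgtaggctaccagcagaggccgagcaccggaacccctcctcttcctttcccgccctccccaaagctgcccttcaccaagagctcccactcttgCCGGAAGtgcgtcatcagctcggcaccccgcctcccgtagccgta
The ETS letters start at base 239 of the Usp16 window and at base 256 of the Usp19 window, and are absent from the windows of Usp20 and Usp51, so they were present in 1 promoter of each direction. Of the 46 genes, 35 matched a RefSeq promoter entry. Read on either strand, CCGGAAG (or CTTCCGG) was in 8 of these 35 promoters and in 9.12% of all 27025 mouse promoters in the table. GGGCGG (or CCGCCC), a GC box, was in 27 of the 35 and in 35.9% of all promoters. CCAAT (or ATTGG) was in 8 and in 37.9%, and TATAAA (or TTTATA) in 1 and in 14.2%, the 1 being the Usp19 window above, where it stands as TTTATA. The Usp promoters had a median of 30 CpG dinucleotides and 66.3% G and C, against 7 and 52.7% over all promoters. All promoters were not limited to genes expressed in these oocytes, whereas the Usp genes were chosen by level. In these motif and CpG differences the choice by level and the gene family cannot be told apart. By response in the rescue set the median GC content of the promoters was 66.3% for 5 that rose, 65.0% for 17 that fell and 66.7% for 11 that did not pass the test, so these medians were close to each other whichever way the genes moved. The 4 motifs were counted separately, and none is contained in another.

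A few Usp genes stood well above the others in level. In the NSN and SN set 6 averaged 100 TPM or more over all libraries, 17 averaged between 10 and 100 and 23 were lower. In the rescue set these numbers were 8, 19 and 19. Usp16, which removes ubiquitin from histone H2A, led the NSN and SN set with a mean of 354 TPM (161 to 601 over 8 libraries). It was followed there by Usp4 at 180.3 TPM, Usp46 at 147 TPM, Usp15 at 136 TPM and Usp9x at 121 TPM. In the rescue set Usp46 led with 228 TPM (123 to 320.3 over 6 libraries), before Usp16 at 212 TPM, Usp3 at 167 TPM, Usp4 at 163 TPM and Usp9x at 140.3 TPM. These means pool groups that differ: Usp46 and Usp16 averaged 294 and 145 TPM with Rnaseh1 plus Supt6, 124 and 377 TPM with Rnaseh1, and 266 and 114 TPM with mCherry, so Usp16 led with Rnaseh1 alone and Usp46 in the other two groups. The ranges of neighbours in these orders overlap throughout. The 5 leading genes held 53.8% of the summed Usp TPM in the NSN and SN set and 44.2% in the rescue set. The sum itself lay between 1417 and 2158 TPM per library in the first table and between 1763 and 2346 TPM in the second. The share of that sum held by Usp16 ranged more widely, between 8.93% and 30.3% in the first table and between 5.06% and 23.6% in the second.

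With Rnaseh1 against mCherry in the rescue set, Usp16, Usp22, Usp1 and Usp42 rose by more than 1 log2 unit, while Usp5, Usp20, Usp19, Usp13 and Usp11 fell by more than 2. In all, 8 Usp genes rose and 21 fell out of 44 tested, and 15 did not pass the test (limma on log2(TPM + 1), Benjamini-Hochberg adjusted p under 0.05 over 12859 genes). That is 18.2% higher and 47.7% lower, close to the 20.3% higher and 46.2% lower among all genes tested (66.5% in either direction), and the median log2 fold change of the Usp genes was -0.58 against -0.52 for all. The shares are near those of all genes, so they say nothing particular of the Usp genes as a group. Because the median of all genes was below 0 here, 3 other scalings were run: centring each library on its median gene moved the all-gene median to 0.06, quantile normalization to 0.05, and removal of the trend with transcript GC content to -0.60. As deposited, 27.6% of the Usp calls were rises. The split was 12 higher and 12 lower (50.0%) with centring and 13 and 14 (48.1%) with quantile normalization. With the GC trend removed it was 6 and 24 (20.0%). Of all genes called, rises were 30.5% as deposited, 52.5% with centring, 51.6% with quantile normalization and 23.9% with the GC trend removed. Called in the same direction as deposited and under all 3 scalings were 5 genes that rose (Usp1, Usp16, Usp22, Usp27x and Usp42) and 9 that fell (Usp5, Usp7, Usp11, Usp13, Usp19, Usp20, Usp28, Usp46 and Uspl1). Of these 14, Usp27x alone lost its call when a library was left out. Usp20, Usp50 and Uspl1 were under 1 TPM in both Rnaseh1 libraries and met the level for testing only through the other groups, which favours a negative difference, and 2 of these 3 (Usp20 and Uspl1) are among the 21 that fell.

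**Figure D1:**
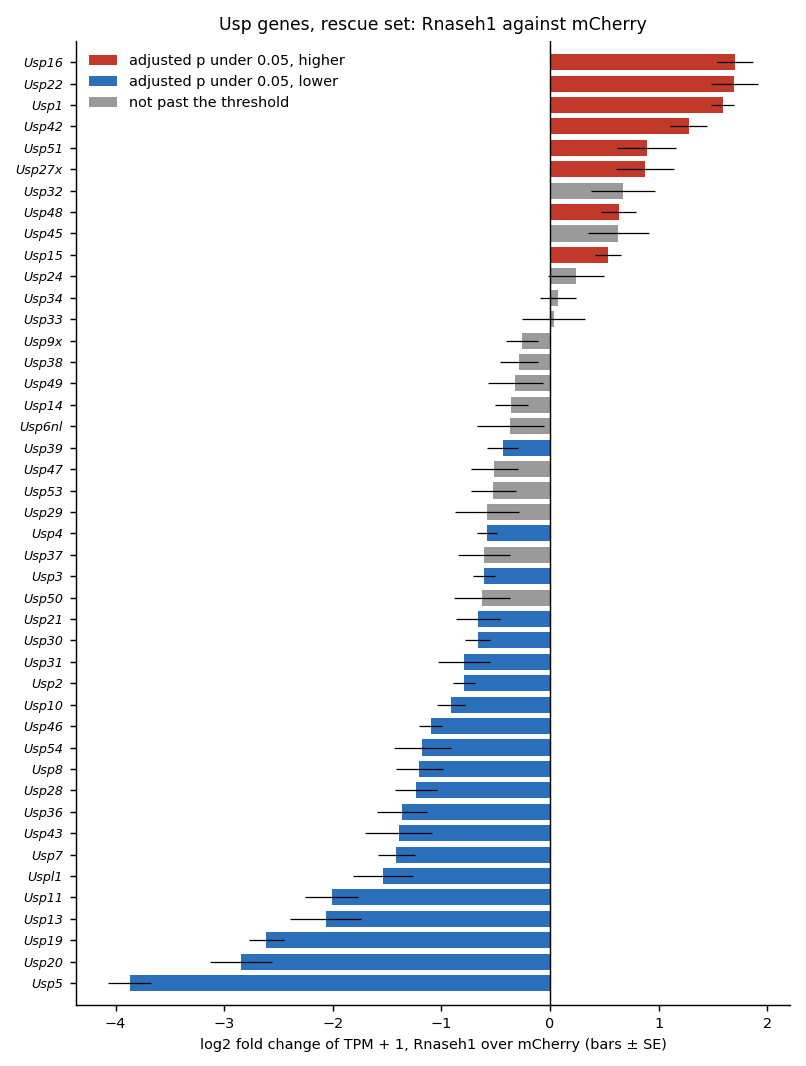
Log2 fold change of TPM + 1 (x axis) for the 44 Usp genes tested in the rescue set, Rnaseh1 over mCherry; bars are the limma estimates, lines are their standard errors, red marks the 8 genes higher and blue the 21 lower at an adjusted p under 0.05. The estimates run from -3.87 for Usp5 to 1.71 for Usp16; those of Usp15, Usp2, Usp21, Usp30, Usp39 and Usp4 take the other sign under at least 1 other scaling.

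The enzymes that act on histones and in the nucleus held most of the rises. Of 9 tested, 5 rose (Usp16, Usp22, Usp27x, Usp42 and Usp51) and 3 fell (Usp3, Usp7 and Usp21), with a median of 0.87. The fall of Usp21 takes the other sign with the GC trend removed. Counts of this class and of the classes below stand against 20.3% higher and 46.2% lower among all genes tested. The classes are small and were drawn up with earlier results of these data known, so their counts were only described. Usp16 (ENSMUSG00000025616, chr16:87454703-87483517 in mm10, plus strand) stood at 437 and 317 TPM with Rnaseh1 against 103 and 125 TPM with mCherry. The groups did not overlap, which held for 39 of the 44 Usp genes (88.6%) and 81.1% of all genes, a log2 fold change of 1.71 ± 0.16 (SE, limma adjusted p = 8.64e-05). Usp22, the catalytic subunit of the deubiquitinating module of the SAGA coactivator, which acts on histone H2B, stood at 19.95 and 17.7 TPM against 4.36 and 5.95 TPM. Its change was 1.70 ± 0.22 (limma adjusted p = 0.000372), again without overlap. Usp27x and Usp51, close relatives of Usp22 that can use the same SAGA adaptors, were lower expressed. Usp27x stood at 5.56 and 4.69 TPM with Rnaseh1 against 1.95 and 2.77 TPM with mCherry, and Usp51 at 4.44 and 6.25 TPM against 2.71 and 2.10 TPM. Both differences passed (0.87 ± 0.26 and 0.89 ± 0.28) and neither group pair overlapped, but each call was lost when a single library was left out, Usp27x without replicate 1 of either group and Usp51 without replicate 2 of Rnaseh1 or without either mCherry library. How reads shared by these 3 related genes were assigned is not given in the sources used here. Usp42, which acts on p53 and histone H2B, stood at 29.95 and 25.0 TPM against 10.7 and 10.7 TPM (1.28 ± 0.17, limma adjusted p = 0.000476). Usp7, which stabilises Mdm2 and p53 in mammalian cells, went the other way, with 36.6 and 30.8 TPM with Rnaseh1 against 78.05 and 106 TPM with mCherry (-1.41 ± 0.17, limma adjusted p = 0.000275). Usp3, another H2A enzyme and an abundant one, stood at 123 and 114 TPM against 170 and 192 TPM (-0.61 ± 0.10, limma adjusted p = 0.00121). With centring the value of Usp3 was -0.02, not past the threshold.

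The 2 tested enzymes that Wdr48 activates moved in opposite directions. Usp1, which removes ubiquitin from Fancd2 and PCNA, stood at 119 and 115 TPM with Rnaseh1 against 37.9 and 38.5 TPM with mCherry (1.59 ± 0.10, limma adjusted p = 1.26e-05). The 2 libraries of each group were close together and the groups far apart. Usp46 stood at 123 and 125 TPM against 256 and 277 TPM (-1.10 ± 0.11, limma adjusted p = 8.87e-05). Usp12, the closest relative of Usp46, was under the level needed for testing, at 0.76 and 0.02 TPM with Rnaseh1 and 0.47 and 0.78 TPM with mCherry.

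The enzymes of free ubiquitin and the proteasome held the largest fall of the family. Of 3 tested, 2 fell and none rose, where 46.2% of all genes were lower and 20.3% higher. Their median was -2.07, against -0.52 for all genes. Usp5 (ENSMUSG00000038429, chr6:124815019-124829484 in mm10, minus strand), which takes apart unanchored ubiquitin chains, stood at 1.54 and 2.09 TPM with Rnaseh1 against 36.85 and 43.4 TPM with mCherry. The change was -3.87 ± 0.20 on the log2(TPM + 1) scale (limma adjusted p = 4.51e-06), the largest in either direction among the Usp genes. Usp13, its closest relative, stood at 1.51 and 0.45 TPM against 7.39 and 6.62 TPM (-2.07 ± 0.33, limma adjusted p = 0.00109). Usp14, which sits on the proteasome, stood at 50.7 and 37.8 TPM against 56.0 and 56.6 TPM, and its difference of -0.36 ± 0.15 did not pass (limma adjusted p = 0.0741).

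Among the 8 enzymes of organelles and membrane traffic tested, 5 fell (Usp8, Usp10, Usp19, Usp20 and Usp30) and none rose. Of all genes 46.2% were lower and 20.3% higher. The class had a median of -0.79, and the fall of Usp30 takes the other sign with the GC trend removed. Usp19, which is anchored in the endoplasmic reticulum, stood at 13.75 and 13.1 TPM with Rnaseh1 against 75.25 and 101 TPM with mCherry (-2.61 ± 0.16, limma adjusted p = 9.95e-06). Usp20 stood at 0.08 and 0.54 TPM against 7.41 and 9.19 TPM (-2.84 ± 0.28, limma adjusted p = 0.000103), so it was near the bottom of the scale in both Rnaseh1 libraries. Usp33, the closest relative of Usp20, stood at 13.4 and 20.7 TPM against 12.4 and 21.2 TPM, and the 2 groups covered the same range (0.03 ± 0.29, limma adjusted p = 0.929). Usp10, a partner of the stress granule protein G3bp1, stood at 94.7 and 107 TPM against 191 and 190.4 TPM (-0.91 ± 0.13, limma adjusted p = 0.000704). Centring gave -0.33 for Usp10, which did not pass.

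Among 6 enzymes of DNA damage and the cell cycle, 1 rose (Usp48) and 2 fell (Usp11 and Usp28), with a median of -0.56. Usp11, a partner of Brca2, stood at 4.33 and 2.44 TPM with Rnaseh1 against 16.6 and 15.8 TPM with mCherry (-2.01 ± 0.24, limma adjusted p = 0.000293). Usp28, which stabilises Myc, stood at 47.2 and 45.2 TPM against 89.0 and 136 TPM (-1.24 ± 0.19, limma adjusted p = 0.00108). The groups did not overlap for either gene. Usp48 stood at 38.4 and 42.2 TPM against 22.3 and 29.4 TPM (0.63 ± 0.16) and lost its call without mCherry replicate 1.

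Of 5 enzymes known from signalling, 1 rose (Usp15) and 2 fell (Usp2 and Usp4), and each of these 3 takes the other sign under at least 1 other scaling. Usp15 and Usp4 are close relatives that act in TGF-beta signalling, and they differed in direction as deposited. Usp15 stood at 145 and 163 TPM with Rnaseh1 against 96.7 and 116 TPM with mCherry (0.53 ± 0.12, limma adjusted p = 0.00556), and -0.25 with the GC trend removed. Usp4 stood at 115 and 114 TPM against 170.5 and 172 TPM (-0.58 ± 0.09, limma adjusted p = 0.000929), and 0.005 with centring. Usp2, which acts on cyclin D1, stood at 81.1 and 91.6 TPM against 151 and 149 TPM (-0.79 ± 0.10, limma adjusted p = 0.000313). Usp9x and Usp34, which act in Smad and Wnt signalling, did not pass. Usp9x stood at 109 and 134 TPM against 128 and 163 TPM, ranges that overlap.

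In the remaining classes no gene rose. Usp36, a nucleolar enzyme, stood at 0.90 and 1.08 TPM with Rnaseh1 against 4.04 and 4.18 TPM with mCherry (-1.36 ± 0.23, limma adjusted p = 0.00159). Usp39, a spliceosome component without protease activity, stood at 25.2 and 32.1 TPM against 38.6 and 39.1 TPM. Its difference of -0.44 ± 0.14 passed (limma adjusted p = 0.0296) but was 0.15 with centring and with quantile normalization. Uspl1, a SUMO protease rather than a ubiquitin protease, stood at 0.62 and 0.12 TPM against 2.82 and 3.01 TPM (-1.54 ± 0.28, limma adjusted p = 0.00218). Of 3 genes classed by textbook role as having altered or missing catalytic residues, Usp54 fell (-1.18 ± 0.27), and Usp50 and Usp53 did not pass. Whether these 3 proteins are active as enzymes was not tested. Usp53 stood at 14.4 and 12.7 TPM against 16.5 and 23.9 TPM. Usp29, an imprinted gene beside Peg3, did not pass (-0.58 ± 0.29, limma adjusted p = 0.12). Usp31 and Usp43, placed in no class, fell by 0.79 and 1.39 on the log2 scale, and Usp31 lost its call in 3 of the 6 refits without a library.

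**Figure D2:**
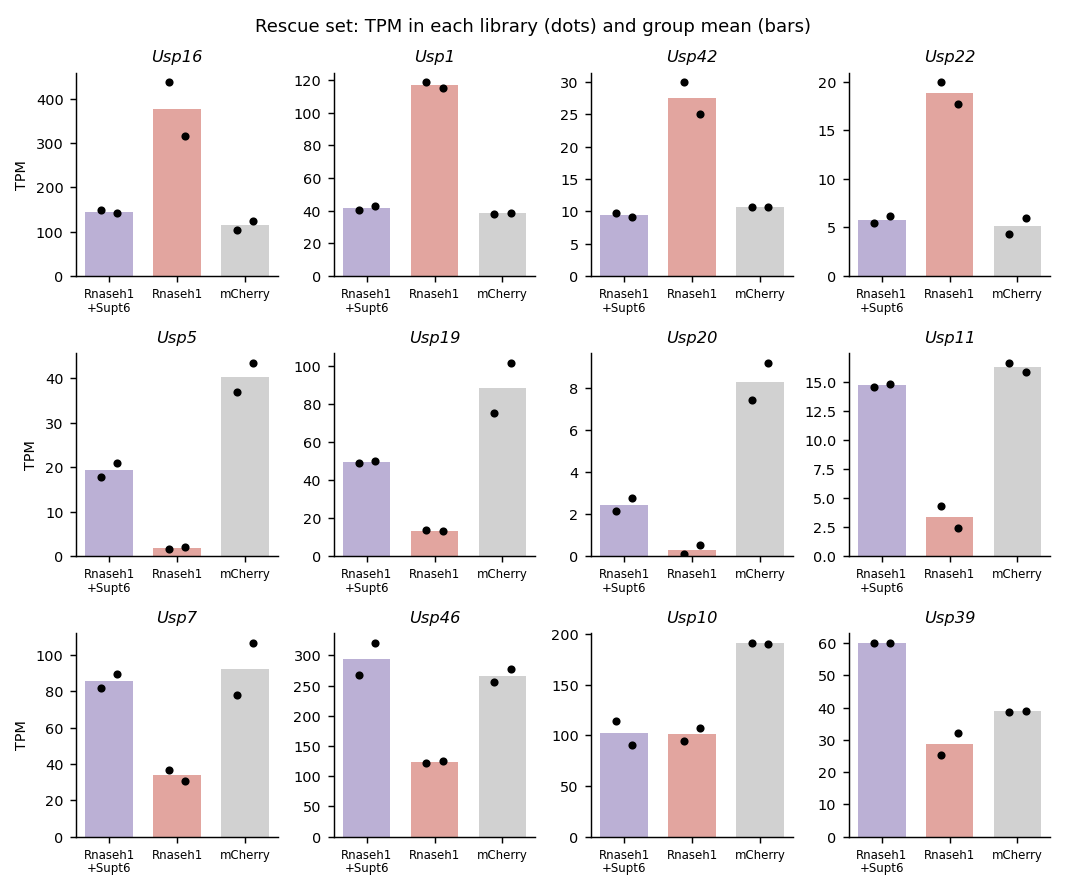
TPM (y axis, a separate linear scale for each gene) of 12 Usp genes in the rescue set, with dots for the 2 libraries of a group and bars for the group mean; groups run from Rnaseh1 plus Supt6 through Rnaseh1 to mCherry. Usp16, Usp1, Usp42 and Usp22 are highest in the Rnaseh1 libraries, Usp5, Usp19, Usp20, Usp11, Usp7 and Usp46 are lowest there, and Usp10 is at about the same level in both Rnaseh1 groups.

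Adding Supt6 was compared with Rnaseh1 alone, a comparison that uses the same Rnaseh1 libraries as the one above. With Rnaseh1 plus Supt6, 17 Usp genes were higher and 8 lower than with Rnaseh1, which is 38.6% and 18.2% of 44, against 41.6% higher and 17.4% lower among all genes tested. The groups did not overlap for 38 of the 44 (86.4%, against 80% of all genes). The medians were 0.41 for the Usp genes and 0.44 for all genes. Higher as deposited and under all 3 scalings were 12 genes (Usp4, Usp5, Usp7, Usp8, Usp11, Usp13, Usp19, Usp28, Usp37, Usp39, Usp46 and Uspl1). Lower were 5 (Usp1, Usp16, Usp22, Usp27x and Usp42), and these 17 kept their calls without each library in turn. Usp20, Usp50 and Uspl1 were under 1 TPM in both Rnaseh1 libraries and met the level for testing only through the other groups. That favours a positive difference here, and 2 of these 3 (Usp20 and Uspl1) were called higher. The share of higher among the Usp calls was 68.0% as deposited, 54.2% with centring, 57.7% with quantile normalization and 77.8% with the GC trend removed. Among all genes called it was 70.5%, 46.6%, 48.1% and 76.4% in this order. Usp30 took the other sign under all 3 scalings.

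Usp5 stood at 17.8 and 20.8 TPM with Rnaseh1 plus Supt6 against 1.54 and 2.09 TPM with Rnaseh1 (2.85 ± 0.20, limma adjusted p = 2.58e-05). Usp19 stood at 48.8 and 49.7 TPM against 13.75 and 13.1 TPM (1.80 ± 0.16, limma adjusted p = 8.08e-05). Usp11 stood at 14.6 and 14.8 TPM against 4.33 and 2.44 TPM (1.87 ± 0.24, limma adjusted p = 0.000531). In all 3 genes the Rnaseh1 plus Supt6 libraries lay clear above those with Rnaseh1. Uspl1 at 4.08 and 3.30 TPM against 0.62 and 0.12 TPM, Usp13 at 4.51 and 6.33 TPM against 1.51 and 0.45 TPM, and Usp20 at 2.16 and 2.75 TPM against 0.08 and 0.54 TPM were further rises (1.80, 1.74 and 1.42). Those of Uspl1 and Usp20 were favoured by the level for testing, as said above. Usp37, which acts on cyclin A, stood at 44.8 and 55.6 TPM against 21.01 and 19.2 TPM (1.27 ± 0.24, limma adjusted p = 0.00296). Usp37 had not passed between Rnaseh1 and mCherry (-0.61 ± 0.24, limma adjusted p = 0.0543).

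In the other direction, Usp16 stood at 149 and 142 TPM with Rnaseh1 plus Supt6 against 437 and 317 TPM with Rnaseh1 (-1.35 ± 0.16, limma adjusted p = 0.00037). Usp22 stood at 5.43 and 6.13 TPM against 19.95 and 17.7 TPM (-1.55 ± 0.22, limma adjusted p = 0.00075). Usp1 stood at 40.6 and 42.9 TPM against 119 and 115 TPM (-1.46 ± 0.10, limma adjusted p = 2.69e-05). All 3 were thus lower in both libraries with Supt6. Usp42 stood at 9.80 and 9.04 TPM against 29.95 and 25.0 TPM (-1.45 ± 0.17), and Usp27x at 1.47 and 0.99 TPM against 5.56 and 4.69 TPM (-1.46 ± 0.26). Usp45, which acts on Ercc1, stood at 5.08 and 5.71 TPM against 13.2 and 8.37 TPM, and its difference of -0.85 ± 0.28 (limma adjusted p = 0.0348) was lost without Rnaseh1 replicate 1 and without either library of Rnaseh1 plus Supt6. Usp10 did not differ beyond the spread of the libraries, at 115 and 90.2 TPM with Rnaseh1 plus Supt6 and 94.7 and 107 TPM with Rnaseh1 (0.01 ± 0.13, limma adjusted p = 0.943).

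The comparison of Rnaseh1 plus Supt6 with mCherry shares libraries with both of these and left few calls: 1 Usp gene higher and 4 lower of 44, or 2.27% and 9.09%, against 5.71% and 7.6% of all genes. None of these 5 calls held in every refit without a library. The lower genes were Usp20 at 2.16 and 2.75 TPM against 7.41 and 9.19 TPM (-1.43 ± 0.28, limma adjusted p = 0.0217), and Usp5 at 17.8 and 20.8 TPM against 36.85 and 43.4 TPM (-1.02 ± 0.20, limma adjusted p = 0.0206). They also included Usp10 at 115 and 90.2 TPM against 191 and 190.4 TPM (-0.90 ± 0.13, limma adjusted p = 0.00951) and Usp19 at 48.8 and 49.7 TPM against 75.25 and 101 TPM (-0.81 ± 0.16, limma adjusted p = 0.0212). Usp39 was the higher gene, at 59.9 and 60.0 TPM against 38.6 and 39.1 TPM (0.61 ± 0.14, limma adjusted p = 0.0344). The groups overlapped for none of the 5, nor for 27 of the 44 Usp genes in all (61.4%, against 61.3% of all genes), and without either mCherry library or either library of Rnaseh1 plus Supt6 the fit called between 0 and 1 of the 4 lower genes and 0 higher ones.

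The partners of these enzymes were described from a list of 14, of which 12 could be tested. With Rnaseh1 against mCherry 1 rose and 7 fell, where 20.3% of all genes were higher and 46.2% lower, with a median of -1.002 against -0.52 for all genes. Eny2, the small adaptor of the SAGA deubiquitinating module that Usp22, Usp27x and Usp51 use, stood at 2749.9 and 2574 TPM with Rnaseh1 against 735 and 652 TPM with mCherry (1.94 ± 0.08, limma adjusted p = 2.01e-06). Wdr48, the activator of Usp1, Usp12 and Usp46, stood at 6.03 and 5.46 TPM against 37.3 and 46.6 TPM (-2.66 ± 0.17, limma adjusted p = 1.12e-05). Wdr20, which joins Wdr48 on Usp12 and Usp46, stood at 225 and 216 TPM against 521 and 499 TPM (-1.21 ± 0.08, limma adjusted p = 1.06e-05). Usp1 and its activator Wdr48 therefore had opposite signs in the same libraries, whereas Usp46 had the sign of Wdr48 and Wdr20. With Rnaseh1 plus Supt6 these partners stood at 904 and 875 TPM (Eny2), 36.4 and 32.7 TPM (Wdr48) and 445 and 471 TPM (Wdr20).

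Deubiquitinases outside the Usp family also moved in both directions, and their counts stand against the same 20.3% higher and 46.2% lower among all genes. Of the UCH class, 5 were tested, 1 rose and 2 fell, with Uchl3 at 531 and 537 TPM with Rnaseh1 against 164 and 169 TPM with mCherry and Bap1, an H2A enzyme of the nucleus, at 8.70 and 7.75 TPM against 62.1 and 76.1 TPM. Of 6 JAMM metalloproteases 3 rose and 3 fell, with the proteasome lid subunit Psmd14 at 144 and 147 TPM against 59.7 and 61.7 TPM. Of 10 OTU enzymes 2 rose and 4 fell, which is near those shares, and of 7 Josephin and MINDY enzymes 5 fell and 0 rose, led by Josd2 at 4.36 and 4.31 TPM against 77.5 and 83.2 TPM. Ubb, a gene that encodes ubiquitin itself, stood at 6352 and 6665 TPM with Rnaseh1 against 23939.6 and 18676 TPM with mCherry (-1.70 ± 0.12, limma adjusted p = 1.77e-05).

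In the NSN and SN set no Usp gene passed the adjusted test in any of 5 comparisons, and neither did any of the 12736 genes tested (0% called in each by limma). The unadjusted counts are given with the values because of this. In SN oocytes, 5 of 44 Usp genes had an unadjusted p under 0.05 between Rnaseh1 and mCherry, 4 higher and 1 lower, or 11.4% against 6.74% of all genes. In NSN oocytes there were 0, against 2.77% of all genes. The medians were -0.01 in SN and -0.28 in NSN, against -0.22 and -0.29 over all genes. Usp11, Usp12 and Usp35 were under 1 TPM in both SN Rnaseh1 libraries. They met the level for testing only through other groups, which favours a negative difference in SN.

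Usp16 had the smallest unadjusted p among the Usp genes in SN oocytes. It stood at 601 and 567 TPM in SN Rnaseh1 against 272 and 161 TPM in SN mCherry (1.47 ± 0.37, limma adjusted p = 0.61). In NSN oocytes it stood at 264 and 387 TPM in NSN Rnaseh1 against 283 and 293 TPM in NSN mCherry (0.15 ± 0.37), where the mCherry libraries lie between those of Rnaseh1. The SN libraries with Rnaseh1 were thus the 2 highest of 8. Usp42 stood at 39.05 and 41.3 TPM in SN Rnaseh1 against 14.7 and 10.6 TPM in SN mCherry (1.61 ± 0.52, limma adjusted p = 0.61). Usp33 stood at 28.7 and 53.55 TPM against 16.6 and 12.4 TPM (1.39 ± 0.47, limma adjusted p = 0.61), although the rescue set gave 0.03 for this gene. Usp2 was lower, at 51.85 and 41.1 TPM in SN Rnaseh1 against 91.8 and 148 TPM in SN mCherry (-1.32 ± 0.37, limma adjusted p = 0.61). These groups did not overlap for any of the 4 genes, as was the case for 29 of the 44 Usp genes (65.9%) and 50.7% of all genes. Usp27x, the last of the 5, and Usp1, the next after them, followed with 1.13 and 1.12. Usp1 stood at 95.25 and 106 TPM in SN Rnaseh1 against 61.7 and 33.6 TPM in SN mCherry (limma adjusted p = 0.61).

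In NSN oocytes the 4 smallest unadjusted p-values for Rnaseh1 against mCherry were those of Usp51, Usp35, Usp12 and Usp37, all with negative differences. Usp12 and Usp51 were under 1 TPM in both NSN Rnaseh1 libraries, and no Rnaseh1 library of either stage reached 1 TPM for Usp12, so it met the level for testing through the mCherry libraries alone, which favours a negative difference. The libraries of the 2 groups did not overlap for 16 of the 44 Usp genes, or 36.4%, against 32.9% of all genes. Usp51 stood at 0.84 TPM in one NSN Rnaseh1 library and was listed at 0 in the other, against 1.53 and 1.66 TPM in NSN mCherry (limma adjusted p = 0.755). Usp12 stood at 0.45 and 0.42 TPM against 1.72 and 1.20 TPM, and Usp35 at 1.73 and 0.25 TPM against 2.53 and 2.59 TPM. Usp37 stood at 24.7 and 7.95 TPM against 24.7 and 27.3 TPM. The low Usp37 value is that of NSN Rnaseh1 replicate 2, a library that stands apart: with it as the only NSN Rnaseh1 library, 3 of 44 Usp genes passed as lower (6.82%, against 8.44% of all genes), and with replicate 1 as the only one 0 did. In such a refit the lone library is assumed to vary like those of the other groups. NSN Rnaseh1 replicate 2 also had the fewest genes at 1 TPM or more, 10036. By the values given above, its Rnaseh1 level was the lowest of the Rnaseh1 libraries. At the oocyte marker Zp3, NSN Rnaseh1 replicate 2 stood apart from the other NSN libraries and nearer to SN Rnaseh1. Zp3 was at 328 TPM in it and 2795 TPM in replicate 1. NSN mCherry had 3308 and 2534 TPM, and SN Rnaseh1 547 and 695 TPM. At Usp4 replicate 2 lay apart from SN Rnaseh1 too, with 54.8 TPM against 214 and 241 TPM. From 2 libraries it cannot be told which is the exception in NSN Rnaseh1. Whether the NSN differences depend on these traits of replicate 2, or on replicate 1, was not tested.

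SN oocytes were compared with NSN oocytes within each construct. Within mCherry, 2 of 44 had an unadjusted p under 0.05, or 4.55% against 2.58% of all genes, and both were lower in SN. Usp22 stood at 4.54 and 4.35 TPM in SN mCherry against 10.8 and 15.9 TPM in NSN mCherry (-1.38 ± 0.56, limma adjusted p = 1.0), and Uspl1 at 2.44 and 2.74 TPM against 5.98 and 7.15 TPM (-1.07 ± 0.46, limma adjusted p = 1.0). Usp32 and Usp35 had the next smallest p-values, with differences of -0.87 and -1.05. Within Rnaseh1, 2 of 44 again had an unadjusted p under 0.05, or 4.55% against 4.59% of all genes. Usp33 stood at 28.7 and 53.55 TPM in SN Rnaseh1 against 16.9 and 9.25 TPM in NSN Rnaseh1 (1.57 ± 0.47, limma adjusted p = 0.923). Usp2 stood at 51.85 and 41.1 TPM against 84.9 and 89.4 TPM (-0.90 ± 0.37, limma adjusted p = 1.0). Usp16 with 0.87 ± 0.37 and Usp53 with 0.86 ± 0.40 had the next smallest p-values, and in none of these 4 genes did the groups overlap, as was the case for 17 of the 44 Usp genes (38.6%) and 26.6% of all genes.

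Whether the Rnaseh1 effect differed between the stages was tested as the SN effect minus the NSN effect. No gene passed after adjustment, and 3 Usp genes, or 6.82% against 2.26% of all genes, had an unadjusted p under 0.05. They were Usp33 with a difference of 2.08 ± 0.67, Usp2 with -1.39 ± 0.52 and Usp16 with 1.32 ± 0.53. Usp22 had the next smallest p, with a difference of 1.57 ± 0.79. For Usp22 the effects were 0.75 in SN and -0.82 in NSN, and its NSN Rnaseh1 libraries were far apart at 12.5 and 3.73 TPM.

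**Figure D3:**
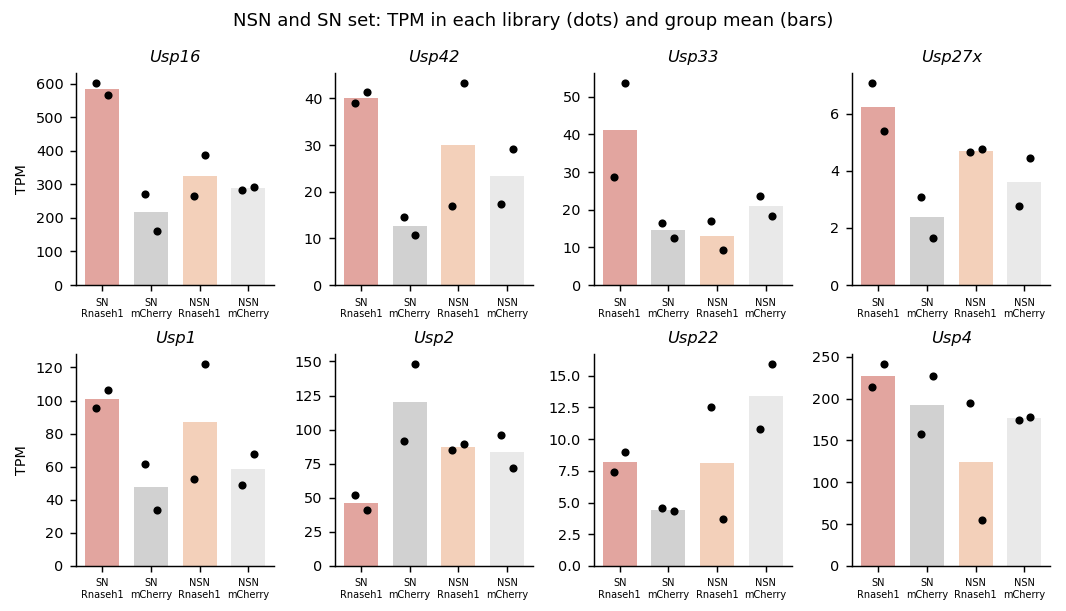
TPM (y axis, a separate linear scale for each gene) of 8 Usp genes in the NSN and SN set, with dots for the 2 libraries of a group and bars for the group mean. Usp16, Usp42, Usp33, Usp27x, Usp1 and Usp22 lie higher and Usp2 lower in both SN Rnaseh1 libraries than in both SN mCherry libraries, the NSN groups overlap for all but Usp33 and Usp27x, and Usp4 has a single low value of 54.8 TPM in NSN Rnaseh1 replicate 2.

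SN oocytes and the rescue set share no libraries, so the Rnaseh1 effects of the 2 tables can be set side by side. Over the 42 Usp genes tested in both, the SN effect and the rescue effect had a Pearson correlation of 0.72 (Spearman 0.68), and over 11800 genes of any kind it was 0.69, so the Usp genes were not apart from the rest in this. For the NSN effect it was 0.34 over the Usp genes and 0.55 over all genes. These are correlations across genes within the same libraries, and genes are not independent replicates. Of the 8 Usp genes that rose in the rescue set, 7 had a positive SN difference. Of the 20 tested in SN among those that fell, 16 had a negative one. These 16 include Usp11 and Uspl1, whose negative differences were favoured by the level for testing, in SN for Usp11 and in the rescue set for Uspl1. Among all genes called in the rescue set, 78.5% of those that rose and 87.8% of those that fell had the same sign in SN. Usp5, the largest fall of the rescue set, stood at 0.40 and 1.28 TPM in SN Rnaseh1 against 2.44 and 8.53 TPM in SN mCherry (-1.68 ± 0.75, limma adjusted p = 0.61). Usp43 and Usp31 were the clearest departures, with 0.78 and 0.82 in SN against -1.39 and -0.79 in the rescue set.

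**Figure D4:**
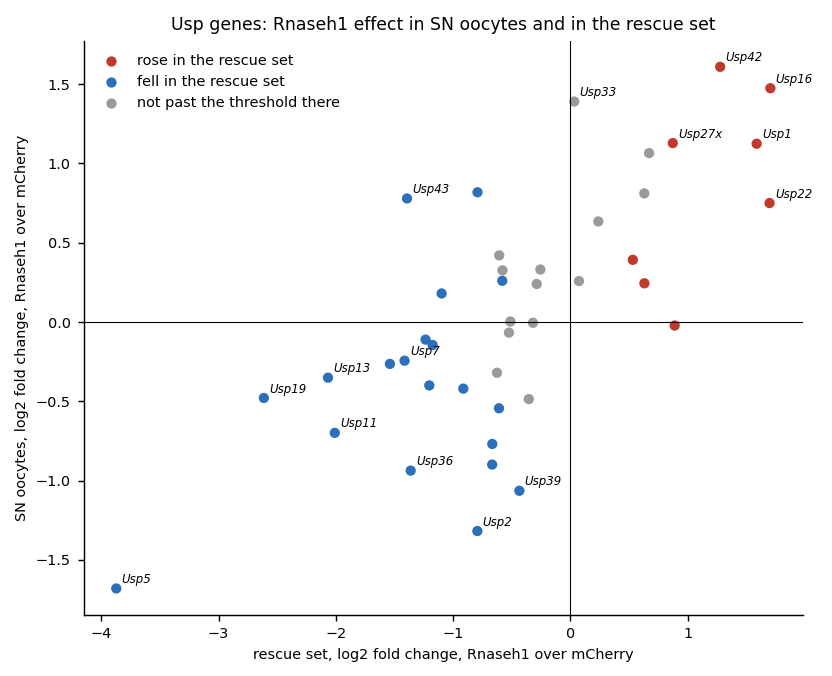
Log2 fold change of TPM + 1 for Rnaseh1 over mCherry in SN oocytes (y axis) against the rescue set (x axis), 1 dot for each of 42 Usp genes, coloured by the adjusted test in the rescue set; no gene passed the adjusted test in SN oocytes. Usp16, Usp42 and Usp1 lie at the upper right and Usp5 at the lower left, and Usp43 lies at the upper left.

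The rescue effect moved with the GC content of the transcripts. Across 12580 genes the correlation of the Rnaseh1 effect with mean transcript GC content was -0.50, and with the genes cut into 10 equal bins by GC content, the median effect was 0.51 in the lowest bin (median GC 40.5%) and -1.63 in the highest (59.1%). In SN oocytes the Rnaseh1 effect also fell with GC content. The correlation was -0.445 over 12704 genes, and the median ran from 0.38 in the lowest bin to -0.79 in the highest. In NSN oocytes the correlation was -0.296. Whether the GC trend contributes to the correlation of the SN and rescue effects was not tested. Over the 44 Usp genes tested in each table, the correlation with GC content was -0.39 in the rescue set, -0.442 in SN and -0.076 in NSN oocytes. Their own GC content had a median of 49.3% for those that rose, 51.2% for those that fell and 44.8% for those that did not pass, against 50.0% for all protein-coding genes tested. Usp16 has 48.6% and Usp22 50.7%, where the median gene of the corresponding bin had -0.44 and -0.69, and with the GC trend removed these genes still had 1.49 and 1.82. Usp5 has 56.2%, where the median gene had -1.52, and it had -2.95 with the trend removed. Usp1, Usp22 and Usp42 lie above the line of medians and Usp11 and Usp13 below it at close to the same GC content, 50.9%, 50.7%, 50.1%, 51.2% and 50.3% in this order.

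**Figure D5:**
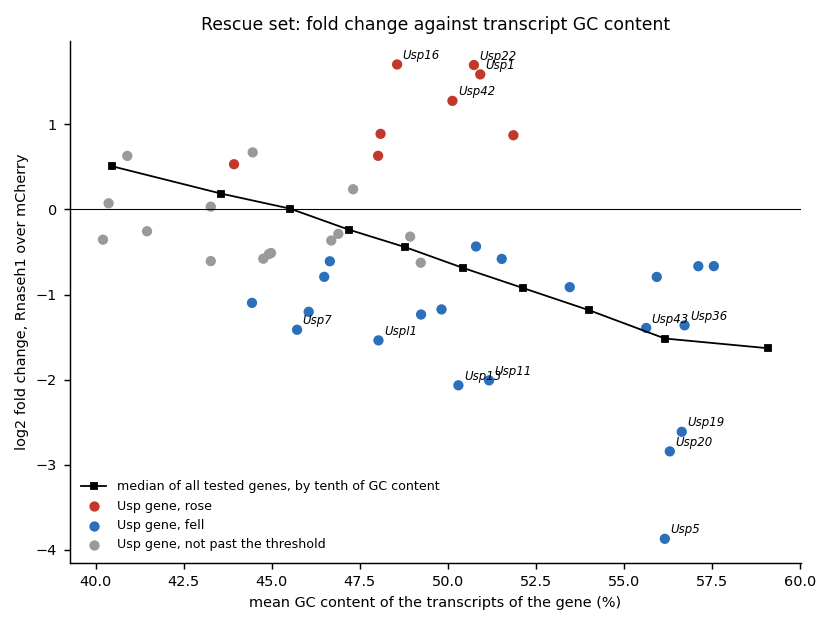
Log2 fold change of TPM + 1 for Rnaseh1 over mCherry in the rescue set (y axis) against the mean GC content of a gene's transcripts in percent (x axis), 1 dot for each of 44 Usp genes; black squares are the medians of all tested genes in 10 bins of GC content. The black line falls from 0.51 to -1.63, Usp16, Usp22, Usp1 and Usp42 lie more than 1 log2 unit above it, and Usp5 lies more than 2 below it.

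Of the markers of other cells, the granulosa genes Serpine2 and Cyp19a1 stood clearly above the rest. Of 12 granulosa and cumulus cell markers, between 4 and 5 reached 1 TPM in a rescue library, and their summed level was 470.4 and 484 TPM with Rnaseh1 plus Supt6, 108 and 88.9 TPM with Rnaseh1, and 474 and 422 TPM with mCherry. Serpine2 stood at 53.0 and 43.55 TPM with Rnaseh1 against 419 and 370.3 TPM with mCherry, and Cyp19a1 at 44.9 and 38.75 TPM against 44.9 and 40.6 TPM. Amh and Foxl2, which define granulosa cells, were listed at 0 in all 6 libraries. In the NSN and SN set the sum ran from 63.7 to 434 TPM. The part of other cells in the Usp results was not tested, and in bulk libraries fewer cells of a type and less RNA per cell cannot be told apart. The theca and stroma markers summed to at most 4.94 TPM in a library and the blood markers to at most 4.74 TPM.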

How the data were processed

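Polyadenylated RNA of mouse oocytes was sequenced in 14 libraries, 2 in each of 7 groups. Reverse transcription used SuperScript II and amplification KAPA HiFi, with a Vazyme TD503 library kit, per the labels' protocols. The authors deposited TPM values per gene, one column per library, in 2 tables with 35389 gene identifiers and 35341 symbols. The submitters' processing notes name, with no roles, the tools STAR 2.7.0d, RSEM 1.3.3, Trim Galore 0.6.7 and DESeq2, and mm10. TPM is a share of a library, so a large change of abundant genes shifts all others, and it holds no depth.

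Identifiers were paired with symbols without regard to version (35319 paired). Coordinates, transcript length and GC content came from GENCODE M21, which annotates the assembly of mm10, and promoters from RefSeq (GRCm38.p6). A separate model per table was fitted in limma 3.58.1 (R 4.3.3, moderated variances with a trend) on log2(TPM + 1), with a mean for each group, for genes at 1 TPM or more in at least 2 libraries. Fold changes on this scale understate those of low genes. P-values were Benjamini-Hochberg adjusted over all genes tested, with a threshold of 0.05, and the scripts were tested on simulated data. Replicates with the same number did not deviate together, so no pairing was used.

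The members, role classes, partner lists and alternatives were chosen with earlier results of these data known. Genes were named in full by rule: up to 6 called members per direction in each rescue comparison, the 4 with the smallest p in each NSN and SN comparison, the 5 highest per table, up to 2 per role class and up to 3 per partner or other deubiquitinase list with the smallest p in the first rescue comparison. Other members were named to complete a class. Some genes of these lists are not reported here.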

Additional observations from a re-analysis of the deposited data

How the results depend on the processing

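The counts of Usp calls were recomputed with other pseudocounts, filters, scalings, weights, a replicate block, and without each library. In the rescue set, with Rnaseh1 against mCherry, the count of higher genes was 4 with a log2 fold change of at least 1 as well and 13 with quantile normalization, and ranged from 5 to 9 without single libraries (5 without mCherry replicate 1). The count of lower genes was 13 with that fold change and 12 with centring, and ranged from 18 to 22. For Rnaseh1 plus Supt6 against Rnaseh1, the count lower was 5 with the fold change and ranged from 5 to 8 (5 without either library of Rnaseh1 plus Supt6). For Rnaseh1 plus Supt6 against mCherry, the count higher was 0 with the fold change and with no filter (0 to 1 without single libraries). The count lower was 2 with the GC trend removed, with the fold change and with no filter (0 to 4). In NSN oocytes 3 Usp genes were lower without Rnaseh1 replicate 1 (6.82%, against 8.44% of all genes), and 0 without any other single library. For SN Rnaseh1 against NSN Rnaseh1, 1 gene, Usp16, passed as higher (1.14) once NSN Rnaseh1 replicate 2 and SN mCherry replicate 2 were both left out, a refit that called 0.448% of all genes higher and 2.3% lower. In refits that leave a group 1 library, that library is assumed to vary like those of the other groups. Over all 12859 genes tested, Rnaseh1 against mCherry gave 1614 higher and 4561 lower with the fold change limit. It gave 4223 and 3958 with quantile normalization, and 4297 and 3894 with centring. For Rnaseh1 plus Supt6 against Rnaseh1, 1201 of all genes were lower with that limit. For Rnaseh1 plus Supt6 against mCherry, 96 were higher and 487 lower with it. No filter gave 412 and 515 of 21033 genes, and removal of the GC trend 580 and 697 of 12580. The cause of the shifts in these counts was not tested. Signs turned for Rnaseh1 against mCherry with the GC trend removed in Usp15 (-0.25), Usp2 (0.10), Usp21 (0.39) and Usp30 (0.35), with centring in Usp39 (0.15) and Usp4 (0.005), and with quantile normalization in Usp39 (0.15). For Rnaseh1 plus Supt6 against Rnaseh1, Usp30 turned to -0.28 with the GC trend removed and to -0.069 with centring and -0.07 with quantile normalization. With the replicate block the Usp counts were 8 higher and 22 lower for Rnaseh1 against mCherry. They were 18 and 6 for Rnaseh1 plus Supt6 against Rnaseh1, and 1 and 4 for Rnaseh1 plus Supt6 against mCherry. Over all genes the replicate block gave 2602 and 5915, 5300 and 2235, and 733 and 850 in this order. Among the calls as deposited, those of Usp45 and Usp51 for Rnaseh1 plus Supt6 against Rnaseh1 were lost under it. Deviations of same-numbered libraries had correlations between -0.51 and 0.17, so the numbers show no pairing. The -0.51 was between SN mCherry and NSN Rnaseh1, whose replicates thus differed in part along a shared axis with opposite numbers. What lies behind this axis was not tested. Depth is unknown, so no counting error can be given for low Usp genes such as Usp35 or Usp12.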
